A study of Homo sapiens with 12 samples.

Results

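A set of 10 genes of ferroptosis defence and of lipid peroxidation was followed in GOT1 knockdown: SLC7A11, GPX4, AIFM2, GCH1, ACSL4, ACSL3, LPCAT3, MBOAT1, VDAC2 and VDAC3. They were chosen by gene symbol, and all 10 were found among the 58721 genes measured by RNA-seq. Both cell lines, MIA PaCa-2 and Pa-Tu-8902 (labelled MiaPaCa2 and Tu8902), derive from human pancreatic cancer and were used as iDox-shGOT1 cells, that is, stable puromycin-selected lines with a lentiviral hairpin against GOT1 that doxycycline (dox) switches on. Each line gave 3 untreated libraries (mnsdox) and 3 libraries after 5 days of dox (plsdox), so that all 12 libraries came from hairpin-carrying cells. The labels give the dox concentration as 1 µM/mL and the study's methods give it in µg per mL, and neither states which hairpin was sequenced. No hairpin-free cells with dox were sequenced in the libraries used here, so dox and the loss of GOT1 cannot be told apart. The labels do not say that replicates are separate cultures, and p-values then measure only the spread between libraries, which may be technical.

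Ferroptosis is cell death by iron-dependent peroxidation of membrane phospholipids. Cystine that enters through the antiporter system xc- feeds the glutathione with which GPX4 reduces lipid peroxides, while AIFM2 and GCH1 supply radical-trapping molecules that do not depend on GPX4. ACSL4 and LPCAT3 load oxidisable polyunsaturated fatty acids into phospholipids, whereas ACSL3 and MBOAT1 load monounsaturated ones that resist oxidation. VDAC2 and VDAC3 are outer mitochondrial membrane channels and are known as targets of the ferroptosis inducer erastin.

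The libraries held 26226537 to 43406137 counts. GOT1 was measured at 78.3, 81.5 and 83.4 TPM (transcript level scaled for transcript length and library size) in untreated Pa-Tu-8902 cells and at 4.51, 3.29 and 3.68 TPM with dox. In MIA PaCa-2 cells it was at 44.1, 38.9 and 42.7 TPM without and 1.68, 1.95 and 1.87 TPM with dox, a fall of 24.9-fold in Pa-Tu-8902 and of 27.2-fold in the other line (edgeR adjusted p = 1.51e-09 and 1.06e-09). Of 8 epithelial markers, all 8 reached a mean of 1 TPM in Pa-Tu-8902, and 5 did so in MIA PaCa-2, where KRT7, EPCAM and CDH1 did not. Of 11 markers of leukocytes, endothelium, fibroblasts and acinar cells, 2 reached 1 TPM in each group. Their summed level was 8.58 to 12.6 TPM in untreated and 22.1 to 25.3 TPM in dox-treated Pa-Tu-8902 libraries, and 200.2 to 258 and 348 to 406 TPM in MIA PaCa-2, with CD3E, LUM and PRSS1 at 0 in both MIA PaCa-2 groups. Most of the MIA PaCa-2 sum came from COL1A2, at a mean of 226 TPM without and 372 TPM with dox. COL1A1 and VWF rose in Pa-Tu-8902 (log2 1.87 and 2.00) and COL1A2 in MIA PaCa-2 (0.70), whereas CD68 fell in Pa-Tu-8902 (-0.71). VWF stayed low, at a mean of 0.27 TPM without and 0.65 TPM with dox. Of the epithelial markers, CDH1 (mean 65.3 to 130.1 TPM) and MUC1 (69.8 to 130.1 TPM) rose in Pa-Tu-8902. SOX9 (31.3 to 20.5 TPM) fell there, and KRT19 (396.5 to 130.1 TPM) fell in MIA PaCa-2. The part of these markers in the results on the 10 genes was not tested.

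After dox, SLC7A11 was the 1 gene of the 10 that passed both thresholds in Pa-Tu-8902 and also the 1 that did so in MIA PaCa-2, and it fell in both. A gene was called when its Benjamini-Hochberg adjusted p over all genes tested was below 0.01 and its change at least 1.5-fold, in edgeR's quasi-likelihood test on estimated counts. Of all genes tested, 16.3% were called in Pa-Tu-8902 cells and 12% in MIA PaCa-2 cells, so 1 of 10 is no larger a share than in the transcriptome. With the p threshold alone, 3 of the 10 passed in each line, against 38.1% of all genes in Pa-Tu-8902 cells and 27.2% in MIA PaCa-2 cells. These were SLC7A11, AIFM2 and GCH1 in Pa-Tu-8902, and SLC7A11, ACSL4 and ACSL3 in MIA PaCa-2. The median log2 fold change of the 10 was -0.16 in Pa-Tu-8902, where that of all genes was 0.0014, and -0.091 in MIA PaCa-2, where it was -0.0089. The signs depend in part on the scale. By log2 fold change of counts, 0 of the 10 were higher with dox in Pa-Tu-8902. By mean TPM, ACSL3 (111.9 to 121.3), LPCAT3 (84.95 to 86.3) and VDAC2 (244.1 to 246.3) were higher there. Normalised counts did not overlap between treated and untreated libraries for 6 of the 10 genes in each line, against 58.5% of all genes in Pa-Tu-8902 cells and 52.9% in MIA PaCa-2 cells. In Pa-Tu-8902 these included ACSL3, which was lower with dox by normalised count and higher by mean TPM.

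**Figure D1:**
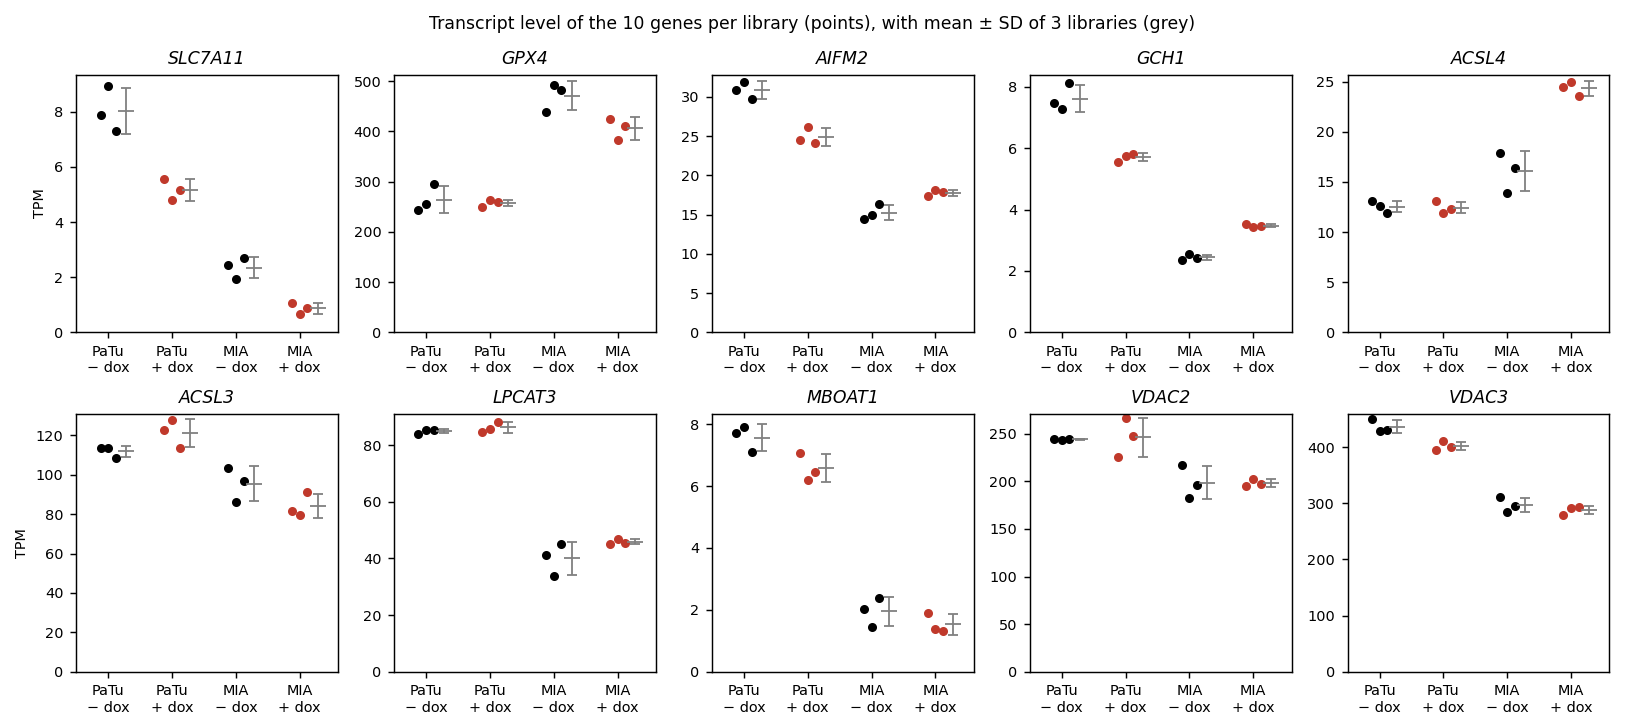
Level of each of the 10 genes in TPM (vertical axes, each from 0) in the 12 libraries, with untreated libraries in black, dox-treated ones in red and the mean ± SD of 3 libraries in grey (PaTu, Pa-Tu-8902; MIA, MIA PaCa-2). SLC7A11 was lower with dox in both lines, GCH1 and AIFM2 lay lower with dox in Pa-Tu-8902 and higher in MIA PaCa-2, and ACSL4 was higher with dox in MIA PaCa-2.

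The first members described are those of cystine import and peroxide reduction. SLC7A11, the cystine-carrying subunit of system xc-, also known as xCT (chr4:138164097-138242349, minus strand, GRCh38), stood at 7.89, 8.94 and 7.29 TPM in untreated and at 5.58, 4.79 and 5.16 TPM in dox-treated Pa-Tu-8902 cells. In MIA PaCa-2 it stood at 2.43, 1.95 and 2.68 TPM without dox and at 1.07, 0.68 and 0.89 TPM with dox. The highest treated library lay below the lowest untreated library in each line. In Pa-Tu-8902 the normalised count went from 1966 ± 137 to 1190 ± 51.8 (SD, n = 3), a 1.65-fold fall (log2 -0.73, SE 0.063, edgeR adjusted p = 5.46e-06). In MIA PaCa-2 it went from 536 ± 46.1 to 195 ± 43.1, a 2.74-fold fall (log2 -1.45, SE 0.14, adjusted p = 1.25e-05). The fall was larger in MIA PaCa-2 by 0.73 on the log2 scale (95% interval 0.40 to 1.05, adjusted p = 0.00176 in the interaction of line and dox). Before dox, Pa-Tu-8902 held 3.33 times the SLC7A11 of MIA PaCa-2 (log2 1.74, adjusted p = 8.57e-10). SLC7A11-AS1, an antisense gene that shares exonic bases with SLC7A11, had at most 4.0 counts in any library.

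Of the 7 genes listed for cystine import and its regulation beside SLC7A11, none was called by edgeR in either dox comparison, and none by DESeq2. In Pa-Tu-8902 cells 2 passed the p threshold alone and 3 had an unadjusted p below 0.05, and in MIA PaCa-2 cells 1 and 5 did so. Of all genes tested, 8466 of 14949 had an unadjusted p below 0.05 in Pa-Tu-8902 and 7236 of 14589 in MIA PaCa-2. SLC3A2, the heavy chain with which SLC7A11 pairs, went the other way by value, with a log2 fold change of 0.26 in Pa-Tu-8902 (adjusted p = 0.0127) and 0.28 in MIA PaCa-2 (adjusted p = 0.00603). Its level at baseline was 6.95 times higher in Pa-Tu-8902 (adjusted p = 2.79e-12). ATF4, a transcription factor that activates SLC7A11, had log2 fold changes of -0.41 (adjusted p = 2.69e-04) in Pa-Tu-8902 and -0.039 (adjusted p = 0.674) in MIA PaCa-2. NFE2L2, another gene of the list, had positive log2 fold changes. They were 0.11 for Pa-Tu-8902 (adjusted p = 0.105) and 0.23 for MIA PaCa-2 (adjusted p = 0.0105), and its treated and untreated counts overlapped in neither line. By sign, 4 of the 7 genes were higher with dox in the former line and 3 in the latter. SLC3A2, ATF4 and NFE2L2 were named after their values were seen. Whether any of them acts on the SLC7A11 level here was not tested.

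GPX4, the selenoenzyme that reduces phospholipid hydroperoxides (chr19:1103982-1106791, plus strand), was among the most abundant of the 10. It was measured at 244, 255 and 295 TPM in untreated and 249.9, 263 and 260.1 TPM in treated Pa-Tu-8902 cells, and the groups overlapped. MIA PaCa-2 cells had 439, 493 and 483 TPM without dox and 426, 382 and 409.9 TPM with dox, without overlap. Its log2 fold change was -0.11 (95% interval -0.30 to 0.068, adjusted p = 0.274) in Pa-Tu-8902 and -0.29 (-0.50 to -0.088, adjusted p = 0.0261) in MIA PaCa-2, and neither passed. At baseline GPX4 was called lower in Pa-Tu-8902, by 1.85-fold (log2 -0.89, SE 0.10, adjusted p = 2.52e-06), the 1 member of the 10 called in that direction.

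Among the 8 glutathione peroxidase genes, GPX4 took a larger share of the summed TPM with dox in both lines. The share was 57.7%, 59.1% and 58.8% in untreated and 69.3%, 68.9% and 69.6% in treated Pa-Tu-8902 libraries. In MIA PaCa-2 cells the share went from 71.9%, 72.1% and 72.1% to 80.4%, 80.7% and 80.2%. The libraries did not overlap in either line (exact permutation p = 0.1, two-sided, the smallest that 3 against 3 allows). GPX1, the cytosolic peroxidase of the family, made up most of the remainder and fell in both lines, by 1.71-fold in Pa-Tu-8902 (log2 -0.77, adjusted p = 2.93e-05) and 2.19-fold in MIA PaCa-2 (log2 -1.13, adjusted p = 1.09e-05). Its share went from a mean of 41.0% to 30.5% in Pa-Tu-8902 and from 22.5% to 13.7% in MIA PaCa-2.

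GPX4 transcripts differ in the start codon, which sets whether the protein carries a mitochondrial leader. Transcripts with the downstream start codon, at position 1104125 of chromosome 19, took 87.6% to 91.2% of GPX4 TPM in Pa-Tu-8902 libraries and 91.7% to 92.3% in MIA PaCa-2 libraries. Those with the upstream codon at 1104044, which encodes the leader, took 5.45% to 6.94% in untreated and 3.46% to 6.84% in treated Pa-Tu-8902, and 5.96% to 6.17% and 6.13% to 6.36% in MIA PaCa-2. The starts of the main transcript of the first class and of the transcript of the second that begins furthest upstream lie 58 bases apart, so the split rests on reads near the 5′ end. Grouping by start codon was chosen after the isoform values were seen.

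Selenium is needed to make GPX4. Of 7 genes of selenium uptake and selenoprotein synthesis, 1 rose and 1 fell in Pa-Tu-8902, and 2 fell in MIA PaCa-2. LRP8, a receptor for the selenium carrier selenoprotein P, fell in both lines, by 2.72-fold in Pa-Tu-8902 (log2 -1.45, adjusted p = 1.79e-06) and by 1.79-fold in MIA PaCa-2 (log2 -0.84, adjusted p = 3.64e-06). SECISBP2, which binds the selenocysteine insertion element, rose in Pa-Tu-8902 (log2 0.59, adjusted p = 3.88e-06). TRNAU1AP, a partner of the selenocysteine tRNA, fell in MIA PaCa-2 (log2 -0.64, adjusted p = 0.0012). The median log2 fold change of the list was -0.27 in Pa-Tu-8902 cells and -0.22 in MIA PaCa-2 cells.

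The genes of the GPX4-independent defences had opposite signs in the lines. AIFM2, also known as FSP1, reduces coenzyme Q at the plasma membrane (chr10:70098223-70132934, minus strand). It was at 30.9, 32.0 and 29.8 TPM in untreated and 24.5, 26.2 and 24.1 TPM in treated Pa-Tu-8902 cells, and at 14.5, 14.9 and 16.3 TPM against 17.3, 18.1 and 17.9 TPM in MIA PaCa-2. No treated library overlapped the untreated ones of its line. The log2 fold change was -0.38 in Pa-Tu-8902 (0.768 of the untreated level, adjusted p = 3.54e-04) and 0.18 in MIA PaCa-2 (1.13-fold higher, adjusted p = 0.0838), and the difference of -0.56 had an adjusted p of 4.47e-04 at 1.47-fold, just under the fold threshold. At baseline AIFM2 was 2.02 times higher in Pa-Tu-8902 (adjusted p = 2.64e-08). MACROH2A2 (H2AFY2 in the files), on the opposite strand, shares 986 of the 5135 exonic bases of AIFM2 in GENCODE release 44 and had 712 to 945 counts in MIA PaCa-2 libraries and at most 1.0 in Pa-Tu-8902. The libraries were strand-specific, while the study's methods name default counting parameters and no strand setting. The estimated counts of AIFM2 were whole in all 12 libraries, so they show no reads split with another gene.

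GCH1, the rate-limiting enzyme of tetrahydrobiopterin synthesis (chr14:54842008-54902826, minus strand), showed the largest difference of response between the lines among the 10. Untreated Pa-Tu-8902 libraries held 7.47, 7.26 and 8.11 TPM and treated ones 5.55, 5.74 and 5.81 TPM. MIA PaCa-2 libraries held 2.37, 2.54 and 2.42 TPM without dox and 3.54, 3.42 and 3.47 TPM with dox. Every treated library was below the untreated ones in Pa-Tu-8902 and above them in MIA PaCa-2. The log2 fold change was -0.52 (SE 0.082, adjusted p = 3.74e-04, 1.43-fold lower) in Pa-Tu-8902 and 0.41 (SE 0.12, adjusted p = 0.0151, 1.33-fold higher) in MIA PaCa-2, so neither reached 1.5-fold. The difference itself was called, at -0.93 on the log2 scale (95% interval -1.22 to -0.64, adjusted p = 7.38e-05). At baseline the gene was 2.85 times higher in Pa-Tu-8902 (adjusted p = 3.14e-08), and with dox the mean levels were 5.70 and 3.48 TPM.

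Neighbouring steps of these routes moved in part. In the list of 16 genes of coenzyme Q synthesis and use, 1 rose and 1 fell in Pa-Tu-8902, and 1 fell in MIA PaCa-2. PDSS2, a subunit of the enzyme that makes the isoprenoid tail of coenzyme Q, fell in both lines, by 1.90-fold in Pa-Tu-8902 (log2 -0.92, adjusted p = 5.33e-06) and by 3.31-fold in MIA PaCa-2 (log2 -1.73, adjusted p = 1.77e-07). COQ8A, a mitochondrial kinase-like factor of coenzyme Q synthesis, rose in Pa-Tu-8902 (log2 0.61, adjusted p = 4.92e-05). It was not called in MIA PaCa-2, but its mean level was higher with dox there too, at 37.0 TPM without and 57.5 TPM with dox. The difference of its response between the lines was not called. None of the 7 other tetrahydrobiopterin genes was called in either line by edgeR or by DESeq2. In edgeR, 5 of them in Pa-Tu-8902 cells and 1 in MIA PaCa-2 cells had an adjusted p below 0.01, against 38.1% and 27.2% of all genes. An unadjusted p below 0.05 was found for 6 and 3 of them, against 8466 of 14949 and 7236 of 14589 genes tested.

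**Figure D2:**
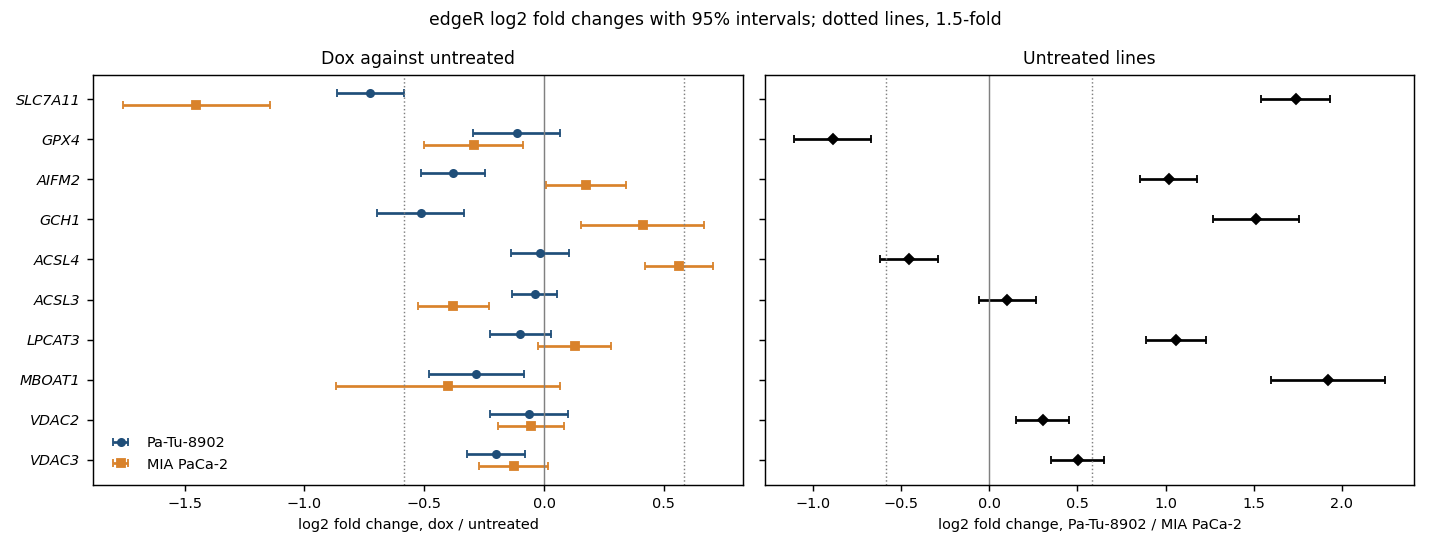
Log2 fold changes of the 10 genes (horizontal axes) from edgeR with 95% intervals: dox over untreated in each line on the left, untreated Pa-Tu-8902 over untreated MIA PaCa-2 on the right, and dotted lines at 1.5-fold. SLC7A11 lies below the dotted line in both lines, at -0.73 and -1.45, and the intervals of SLC7A11, GCH1, AIFM2, ACSL4 and ACSL3 do not meet between the lines.

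ACSL4 and ACSL3 had log2 fold changes of opposite sign in MIA PaCa-2, and neither was called. ACSL4, which activates arachidonic and adrenic acid for phospholipids (chrX:109624244-109733403, minus strand), was at 17.9, 13.9 and 16.4 TPM without dox and at 24.5, 25.0 and 23.6 TPM with dox in MIA PaCa-2. In Pa-Tu-8902 it was at 13.1, 12.6 and 11.9 TPM and at 13.1, 11.9 and 12.4 TPM. The treated MIA PaCa-2 libraries lay above all untreated ones, and the Pa-Tu-8902 groups overlapped. The log2 fold change in MIA PaCa-2 was 0.56 (SE 0.065, adjusted p = 4.77e-05), a 1.48-fold difference that missed the fold threshold. It passed, at 0.61, when untreated MIA PaCa-2 replicate 1 was left out. In Pa-Tu-8902 it was -0.018 (95% interval -0.14 to 0.10, adjusted p = 0.801), and the difference between the lines was -0.58 (adjusted p = 7.37e-05), also short of 1.5-fold. At baseline ACSL4 was 1.37-fold lower in Pa-Tu-8902 (log2 -0.45, adjusted p = 9.41e-05).

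ACSL3, which activates monounsaturated fatty acids such as oleate (chr2:222860942-222944639, plus strand), was at 104, 86.2 and 96.7 TPM without and 81.6, 79.7 and 91.0 TPM with dox in MIA PaCa-2. In Pa-Tu-8902 it was at 113.5, 114 and 109 TPM without and at 123, 128 and 114 TPM with dox. The TPM groups overlapped in both lines, whereas the normalised counts did not and were lower with dox. The log2 fold change of the counts was -0.38 in MIA PaCa-2 (0.769 of the untreated level, adjusted p = 0.00101) and -0.040 in Pa-Tu-8902 (adjusted p = 0.471), a difference of 0.34 (adjusted p = 0.00528). With effective gene lengths as offsets the MIA PaCa-2 value was -0.24 (adjusted p = 0.0378) and the Pa-Tu-8902 value turned to 0.045. ACSL3-203, a transcript annotated for nonsense-mediated decay, took a mean of 37.6% to 42.3% of ACSL3 TPM in the 4 groups but 5.23% to 8.99% of ACSL3 counts in the single libraries.

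The share of ACSL4 in the summed TPM of the 5 ACSL genes was 11.7%, 11.2% and 11.4% in untreated and 17.7%, 18.2% and 16.1% in treated MIA PaCa-2 libraries. That of ACSL3 went from 67.4%, 69.2% and 66.9% to 58.9%, 58.0% and 62.2%. Both shares separated the groups without overlap (exact permutation p = 0.1 each). In Pa-Tu-8902 the mean shares were 6.91% and 6.45% for ACSL4 and 61.7% and 62.7% for ACSL3, and for ACSL4 the direction turned when shares were taken from counts. The lines also differed in the partner enzymes. ACSL5 took a mean of 27.5% of ACSL TPM in untreated Pa-Tu-8902 cells and 0.064% in untreated MIA PaCa-2 cells, whereas ACSL1 took 3.85% and 20.7%.

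In MIA PaCa-2, ACSL3-201 lost share within ACSL3. It has 17 exons against 16 in ACSL3-202, with which it shares the start codon. It took 16.4%, 14.5% and 16.4% of ACSL3 TPM in untreated and 11.9%, 10.3% and 9.16% in treated libraries (exact permutation p = 0.1). Taken from counts the shares were larger, 43.6% ± 0.45 without and 32.0% ± 2.63 with dox (SD, n = 3), and did not overlap either. In Pa-Tu-8902 the TPM shares overlapped, at 11.4%, 11.0% and 12.2% against 9.15%, 8.86% and 11.7%.

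**Figure D3:**
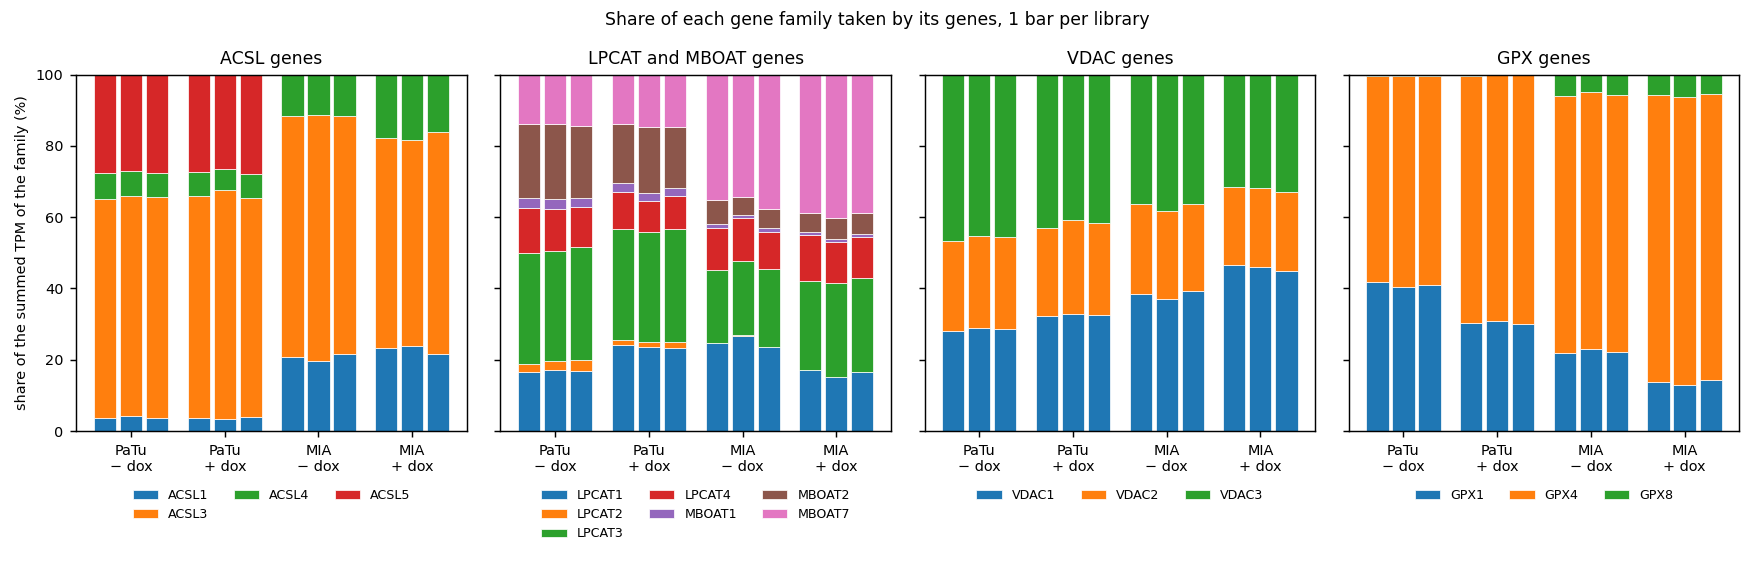
Share of the summed TPM of a gene family (vertical axis, percent) taken by each of its genes, 1 bar per library and 3 bars per group, for the ACSL, LPCAT and MBOAT, VDAC and GPX genes; genes under 0.5% in every library are not drawn. GPX4 takes a larger share of GPX with dox in both lines, and ACSL4 takes a larger share of ACSL with dox in MIA PaCa-2.

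The acyltransferases LPCAT3 and MBOAT1 differed between the lines and were not called after dox. LPCAT3, which prefers polyunsaturated acyl chains (chr12:6976185-7018477, minus strand), was at 84.2, 85.4 and 85.3 TPM in untreated and 84.7, 85.8 and 88.4 TPM in treated Pa-Tu-8902 cells. In MIA PaCa-2 it was at 41.2, 33.7 and 45.2 TPM without and at 45.3, 47.0 and 45.4 TPM with dox. Its log2 fold changes were -0.099 (95% interval -0.23 to 0.030, adjusted p = 0.182) and 0.13 (-0.025 to 0.28, adjusted p = 0.164), and its normalised counts overlapped in both lines. At baseline it was 2.08 times higher in Pa-Tu-8902 (adjusted p = 3.03e-08). EMG1, on the opposite strand, shares 3096 of the 4693 exonic bases of LPCAT3 in GENCODE release 44 and also had more counts in Pa-Tu-8902, 5203 to 7318 against 2916 to 4056, while the estimated counts of LPCAT3 were whole in every library.

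MBOAT1, which transfers monounsaturated chains to lysophospholipids (chr6:20099684-20212469, minus strand), was among the 3 lowest genes in every group. It was at 7.71, 7.91 and 7.09 TPM in untreated and 7.08, 6.21 and 6.45 TPM in treated Pa-Tu-8902 libraries, which do not overlap. In MIA PaCa-2 it was at 2.04, 1.45 and 2.37 TPM without and 1.90, 1.37 and 1.31 TPM with dox, with overlap. The log2 fold changes were -0.28 (adjusted p = 0.0228) and -0.40 (SE 0.21, adjusted p = 0.156). At baseline MBOAT1 had the largest fold difference of the 10 genes, 3.79 times higher in Pa-Tu-8902 (log2 1.92, SE 0.15, adjusted p = 5.32e-08).

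LPCAT3 held 31.2%, 30.8% and 31.7% of the summed TPM of the 7 LPCAT and MBOAT genes in untreated Pa-Tu-8902 and 20.5%, 20.9% and 22.1% in untreated MIA PaCa-2. With dox it held 30.9%, 30.9% and 31.7% in Pa-Tu-8902 and 25.1%, 26.3% and 26.4% in MIA PaCa-2, the latter above all untreated libraries (exact permutation p = 0.1). LPCAT1, which acts on phosphatidylcholine with mostly saturated chains, went in opposite directions, from a mean share of 16.9% to 23.6% in Pa-Tu-8902 and from 25.0% to 16.3% in MIA PaCa-2. MBOAT2, a relative of MBOAT1 with a like preference, took 20.6% in untreated Pa-Tu-8902 and 5.72% in untreated MIA PaCa-2.

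Of 20 further genes of lipid remodelling, 17 were tested in each dox comparison, 2 fell in Pa-Tu-8902, and 1 rose and 4 fell in MIA PaCa-2. FAR1, which makes the fatty alcohols of ether lipids, fell in both lines, by 2.06-fold (log2 -1.04, adjusted p = 7.54e-07) and 1.88-fold (log2 -0.91, adjusted p = 2.04e-06). LPCAT2 fell in Pa-Tu-8902 (log2 -0.62, adjusted p = 7.29e-05). In MIA PaCa-2, the desaturases SCD (log2 -0.87, adjusted p = 1.07e-05) and FADS2 (log2 -0.82, adjusted p = 1.90e-04) and LPCAT1 (log2 -0.79, adjusted p = 3.13e-06) fell. TMEM189, which introduces the vinyl ether bond of plasmalogens, rose there (log2 0.68, adjusted p = 3.53e-05). In Pa-Tu-8902 these genes were not called. By mean level, TMEM189 (34.9 to 52.65 TPM) and SCD (265.8 to 230.8 TPM) moved there in the same direction as in MIA PaCa-2. FADS2 (2.90 to 4.54 TPM) and LPCAT1 (45.9 to 65.35 TPM) moved the other way, and for both the difference of the response was called. Among 13 genes of lipid oxidation, 5 were tested in Pa-Tu-8902 cells and 6 in MIA PaCa-2 cells, and PLA2G6, a phospholipase that cleaves oxidised chains, rose in Pa-Tu-8902 (log2 0.75, adjusted p = 3.65e-04).

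The VDAC channels were not called in any comparison. VDAC3 on chromosome 8 was at 451, 429 and 430.0 TPM in untreated and 396, 411 and 399.8 TPM in treated Pa-Tu-8902 cells, without overlap. MIA PaCa-2 cells had 310.3, 285 and 295 TPM without and 279, 292 and 293 TPM with dox. Its log2 fold changes were -0.20 (adjusted p = 0.0108) and -0.13 (adjusted p = 0.148), and at baseline it was 1.42 times higher in Pa-Tu-8902 (adjusted p = 1.92e-05). VDAC2 (chr10:75210154-75231448, plus strand) was at 245, 244 and 244 TPM without and 225, 266 and 247 TPM with dox in Pa-Tu-8902, and at 217, 183 and 196 TPM against 195, 202 and 198 TPM in MIA PaCa-2. Its log2 fold changes were -0.063 (95% interval -0.23 to 0.099) and -0.055 (-0.19 to 0.082), with adjusted p = 0.501 and 0.512. VDAC2 was the 1 gene of the 10 whose estimated counts were not whole in all 12 libraries, which happens where reads are shared with another gene, and its counts are uncertain to that extent.

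Within the 3 VDAC genes, VDAC1 took more of the TPM with dox in both lines, with a mean share that went from 28.5% to 32.6% in Pa-Tu-8902 cells and from 38.3% to 45.8% in MIA PaCa-2 cells. VDAC3 took 46.6%, 45.4% and 45.6% in untreated and 43.1%, 40.7% and 41.6% in treated Pa-Tu-8902 libraries. In MIA PaCa-2 cells it took 36.2%, 38.3% and 36.4% and then 31.5%, 31.9% and 32.9%. Neither VDAC1 nor VDAC3 shares overlapped between treated and untreated libraries (exact permutation p = 0.1 each). Among 6 partners, including VDAC1, 1 fell in Pa-Tu-8902 and none was called in MIA PaCa-2 by edgeR or DESeq2. In edgeR, 3 passed the p threshold alone in MIA PaCa-2, against 27.2% of all genes. The count at an unadjusted p below 0.05 was also 3, against 7236 of 14589 genes tested. The gene that fell was HK2, a hexokinase that docks on VDAC (log2 -0.78, adjusted p = 6.73e-07).

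The lines used the first exons of VDAC2 in different proportions. VDAC2-214 begins at position 75210154 of chromosome 10 and VDAC2-203 at 75210796, 642 bases downstream, and both are annotated with the same start codon at 75211159, so their first exons are not translated. The 250 bases before each of the matching RefSeq starts (GRCh38.p14, plus strand) are shown because the transcripts that begin there took different shares in the lines, with CpG dinucleotides in capitals.
Upstream start, chr10:75209920-75210169: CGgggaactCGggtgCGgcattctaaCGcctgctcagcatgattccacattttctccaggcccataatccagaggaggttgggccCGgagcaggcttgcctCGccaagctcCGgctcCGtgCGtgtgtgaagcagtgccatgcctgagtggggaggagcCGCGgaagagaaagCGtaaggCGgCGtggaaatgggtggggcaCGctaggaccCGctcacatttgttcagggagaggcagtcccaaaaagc
Downstream start, chr10:75210546-75210795: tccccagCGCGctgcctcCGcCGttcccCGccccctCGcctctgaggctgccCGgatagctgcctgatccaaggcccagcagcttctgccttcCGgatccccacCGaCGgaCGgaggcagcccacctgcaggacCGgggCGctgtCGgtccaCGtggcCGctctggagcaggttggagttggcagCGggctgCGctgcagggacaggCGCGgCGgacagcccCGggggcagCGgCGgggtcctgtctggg
The upstream window holds 16 CpG and 61.2% G and C, and its last 16 bases lie in the first exon of VDAC2-214. The downstream window holds 24 CpG and 74.0% G and C and lies between the upstream first exon and VDAC2-203. Of 35116 RefSeq promoter windows of this length, 41.0% hold at least 16 CpG and 23.7% at least 24, with a median of 11.0.

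The upstream transcript VDAC2-214 took 37.0%, 34.4% and 36.5% of VDAC2 TPM in untreated MIA PaCa-2 libraries and 16.3%, 8.61% and 5.12% in untreated Pa-Tu-8902 libraries. All MIA PaCa-2 libraries lay above all Pa-Tu-8902 libraries (exact permutation p = 0.1 for the untreated cells). With dox it took 30.7%, 31.2% and 30.6% in MIA PaCa-2, below the untreated libraries (p = 0.1, exact permutation), and 3.63%, 13.9% and 3.03% in Pa-Tu-8902, which overlapped. VDAC2-203 took most of the rest, a mean of 86.9% in untreated Pa-Tu-8902 and 60.3% in untreated MIA PaCa-2. The transcripts differ over first exons of 59 and 143 bases, so the shares rest on the reads that reach them.

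**Figure D4:**
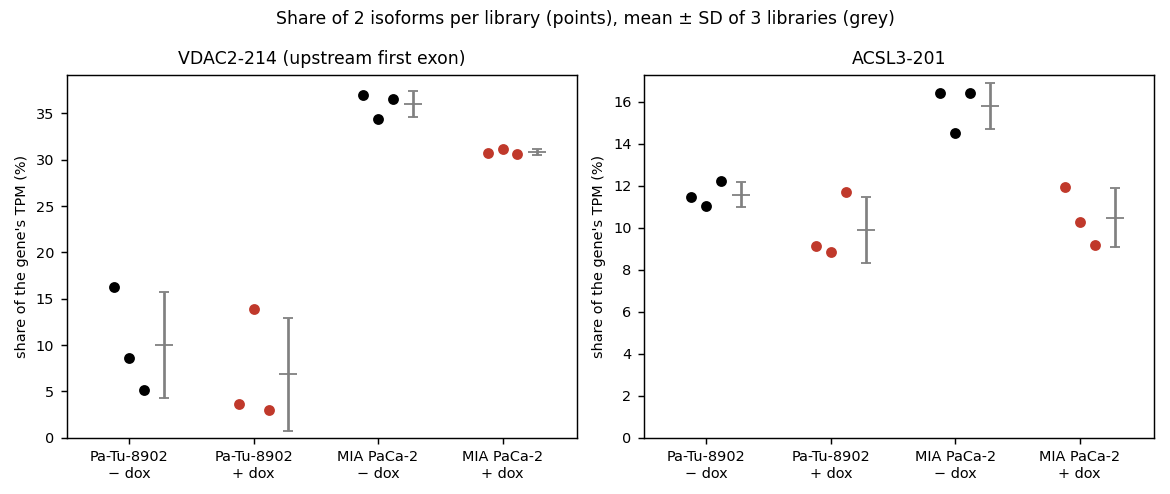
Share of VDAC2-214 in VDAC2 TPM (left) and of ACSL3-201 in ACSL3 TPM (right), in percent from 0, for each of the 12 libraries (black, untreated; red, dox) with the mean ± SD of 3 libraries in grey. VDAC2-214 lies at 30.6% to 37.0% in MIA PaCa-2 and at 3.03% to 16.3% in Pa-Tu-8902, and ACSL3-201 is lower with dox in MIA PaCa-2.

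The other named isoforms were compared in the same way. MBOAT1 has 1 annotated transcript, so its share could not vary. Of the 2 annotated transcripts of SLC7A11, SLC7A11-201 took 98.2% or more in every library. AIFM2-201 took a mean of 71.5% in untreated and 76.9% in treated Pa-Tu-8902, without overlap (exact permutation p = 0.1), and 74.1% and 71.7% in MIA PaCa-2. The main transcripts ACSL4-202, LPCAT3-201 and VDAC3-201 took means of 84.1% to 92.7%, without overlap after dox for ACSL4-202 in Pa-Tu-8902 (88.7% to 92.7%) and VDAC3-201 in MIA PaCa-2 (92.1% to 89.7%, exact permutation p = 0.1 each). Taken from counts, the ACSL4-202 shares in Pa-Tu-8902 overlapped and their direction turned, with means of 94.2% without and 93.5% with dox. GCH1-202 took 15.0%, 13.2% and 17.2% of GCH1 TPM in untreated and 26.8%, 43.1% and 33.3% in treated Pa-Tu-8902 cells, without overlap (exact permutation p = 0.1). GCH1-205 went the other way there, from 14.6% ± 7.50 to 1.55% ± 2.68 (SD, n = 3), also without overlap (exact permutation p = 0.1). In MIA PaCa-2 the shares of GCH1-202 and GCH1-205 overlapped, and GCH1-202 ranged from 0% to 33.9% among untreated libraries alone. These splits rest on 147 to 470 GCH1 counts per library.

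Between the untreated lines, 6 of the 10 genes were called, about the same share as the 58.1% of all genes, with SLC7A11, AIFM2, GCH1, LPCAT3 and MBOAT1 higher in Pa-Tu-8902 and GPX4 higher in MIA PaCa-2. With the p threshold alone 9 passed, against 72.9%, and for 9 the libraries did not overlap, against 81.7%. ACSL3 was the gene that did neither (log2 0.10, adjusted p = 0.227). Line and library handling by line cannot be told apart. By level, VDAC3 was highest in Pa-Tu-8902 and GPX4 in MIA PaCa-2, in both cases followed by genes at lower, non-overlapping values, while SLC7A11, GCH1 and MBOAT1 formed the bottom of both lines with overlapping values before dox. After dox SLC7A11 had the lowest mean in both lines, and in Pa-Tu-8902 its range overlapped that of GCH1.

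In the difference of the dox response between the lines, 2 of the 10 genes were called, SLC7A11 and GCH1, against 10.4% of all genes. With the p threshold alone, 5 passed, against 16.9%, namely SLC7A11, AIFM2, GCH1, ACSL4 and ACSL3. The intervals of the other genes included 0 for GPX4 (log2 0.18), MBOAT1 (0.12), VDAC2 (-0.0070) and VDAC3 (-0.071), while LPCAT3 was at -0.22 (95% interval -0.42 to -0.024, adjusted p = 0.0937).

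Of 3 transcripts known to mark ferroptosis, 2 had enough counts to be tested. The untested one, PTGS2, had 0, 2 and 3 counts in untreated and 14, 10 and 9 counts in treated Pa-Tu-8902 libraries. In MIA PaCa-2 it had 0 counts in every library. CHAC1, a glutathione-degrading enzyme, fell in Pa-Tu-8902 (log2 -0.80, adjusted p = 2.67e-04) and had a log2 fold change of -0.40 in MIA PaCa-2 (adjusted p = 0.0196), which did not pass. TFRC, the transferrin receptor, had log2 fold changes of 0.31 in Pa-Tu-8902 (adjusted p = 2.29e-04) and 0.33 in MIA PaCa-2 (adjusted p = 0.00322), both under 1.5-fold, and was named after its values were seen.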

How the data were processed

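RNA-seq of 12 libraries was re-analysed, 3 per group, grouped by the sample titles. The authors trimmed paired reads (Trimmomatic 0.39), aligned them with STAR 2.5.2a as called by RSEM 1.3.1 (GRCh38, default parameters) and deposited expected counts and TPM per gene and isoform, unfiltered and with replicates separate. The deposited expected counts (5.34% not whole) were rounded, and the deposited TPM values were used for levels and shares only. Ensembl identifiers were looked up in GENCODE release 44 (GRCh38) for positions and promoter windows taken from RefSeq, where 6 of the 10 genes had an entry.

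Genes that reached 10 counts in 3 or more libraries of a fit were tested with edgeR 4.0.16 (TMM, glmQLFit, glmQLFTest, R 4.3.3), in each line, between the untreated lines and, for the difference of the responses, over all 12 libraries. A call needed an adjusted p below 0.01 and 1.5-fold, the thresholds of the study. The scripts were tested on simulated data. The normalised count is the count divided by the relative effective library size. Shares were compared by exact permutation over libraries. Replicates of every group differed by more than sampling noise.

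Named were the 10 genes, GOT1, called genes of the pathway lists (at most 12 per line), family partners, and isoforms with a mean share of at least 10%. The genes and lists were chosen with earlier results of these data known. Alternatives were DESeq2 1.42.0, its size factors, no filter, effective lengths, a replicate block, 1 fit of 12 libraries, other thresholds, and each library left out.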

Additional observations from a re-analysis of the deposited data

Results flagged for a closer look

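For SLC7A11 and GCH1 the test of the difference between the lines passed both thresholds. SLC7A11 fell in both lines, and its fall was smaller in Pa-Tu-8902 by 0.73 on the log2 scale, with every treated library below every untreated one in each line. GCH1 differed by -0.93 on the log2 scale, with lower values in 3 of 3 treated Pa-Tu-8902 libraries and higher values in 3 of 3 treated MIA PaCa-2 libraries than in any untreated library of the line. Both were called under the 17 alternatives run for this comparison, with edgeR or DESeq2 adjusted p-values of 2.67e-07 to 0.00494 for SLC7A11 and 7.49e-07 to 0.00167 for GCH1. With a library left out, the SLC7A11 difference ran from 0.591 to 0.881, its lower end just above the fold limit of 0.585 in log2. That of GCH1 ran from -0.97 to -0.87.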

How the results depend on the processing

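Among the 10 genes, 508 of 530 recomputed log2 fold changes kept their direction and their side of the thresholds, 8 newly passed, none was lost and 14 changed sign. Calls of SLC7A11 were kept in all alternatives. Without the fold limit, 3 genes passed in each line and 5 in the difference between the lines. Leaving out 1 library at a time gave 1 called gene for the Pa-Tu-8902 cells, 1 to 2 for MIA PaCa-2, 6 to 7 at baseline and 2 to 3 for the difference. The second gene in MIA PaCa-2 was ACSL4 without untreated replicate 1 (log2 0.61), the seventh at baseline VDAC3 without untreated Pa-Tu-8902 replicate 2 (log2 0.62). The third gene of the difference was ACSL4 or AIFM2, and ACSL4 also passed with effective lengths (-0.62). Signs turned only for values near 0: ACSL3 in Pa-Tu-8902 with effective lengths (0.045), ACSL4 in Pa-Tu-8902 (-0.048 to 0.024 with a library left out), VDAC2 in Pa-Tu-8902 (-0.13 to 0.031), and the VDAC2 difference between the lines with DESeq2 (0.0054), its size factors (0.0059), no filter (0.017), effective lengths (0.010) and a library left out (-0.074 to 0.085). The cause was not tested. Of 46 shares, 13 moved by more than the SD of a group when taken from counts. Libraries with the same replicate number did not deviate together (correlations -0.12 to 0.099), and a fit with the replicate number as a block gave 1, 1, 6 and 2 called genes, as without the block. With 3 libraries a group, exact permutation p cannot go below 0.1. MBOAT1, SLC7A11 and GCH1 rest on the fewest counts, down to 43, 130 and 147 in MIA PaCa-2 libraries.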
